A study of Mus musculus with 30 samples.

Results

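The genes described here are 10 protein-coding genes of the mouse mitochondrial genome: mt-Nd1, mt-Nd2, mt-Nd4, mt-Nd5, mt-Nd6, mt-Cytb, mt-Co1, mt-Co2, mt-Co3 and mt-Atp6. They were taken from a named list and matched by transcript ID. All 10 were found, and 9 of them were listed for all 6 groups, among 14379 annotated genes listed for all groups. Total RNA of abdominal aortas was sequenced from wild-type mice of the C57BL/6 strain, giving 30 libraries, 5 in each of 6 groups. Over 28 days all groups but one received angiotensin II at 500 ng/kg/min, a peptide hormone that narrows arteries. In AngII+ETH it was combined with ethoxysanguinarine at 5 mg/kg/day, in AngII+BAI with baicalin at 5 mg/kg/day, in AngII+GAS with gastrodin at 5 mg/kg/day and in AngII+VAL with valsartan, a blocker of the type 1 angiotensin receptor, at 10.4 mg/kg/day. AngII mice received the hormone and saline, and Control mice saline alone. The sources used here do not give the age or sex of the mice. Levels are FPKM, that is fragments per kilobase and unit of library size, which are comparable between genes of different length.

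The mitochondrial genome is a small circle that encodes core subunits of the respiratory chain, the ribosomal RNAs (rRNAs) and tRNAs of the mitochondrion. Both strands are transcribed into long precursors, which are cut mostly at tRNAs, so that neighbouring genes start from a shared transcript and differ later by processing and decay. All other subunits of the chain, and every protein that copies, transcribes and processes mitochondrial DNA and RNA, are encoded in the nucleus. In the aorta these RNAs come from smooth muscle, endothelium and adventitia, and from the mitochondria-rich brown fat around the vessel where it is left on the tissue.

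On GRCm38, complex I subunits are encoded by mt-Nd1 (chrM:2751-3707), mt-Nd2 (chrM:3914-4951), mt-Nd4 (chrM:10167-11544), mt-Nd5 (chrM:11742-13565) and mt-Nd6 (chrM:13552-14070). Cytochrome b of complex III is encoded by mt-Cytb (chrM:14145-15288). The catalytic core of complex IV, cytochrome c oxidase, is encoded by mt-Co1 (chrM:5328-6872), mt-Co2 (chrM:7013-7696) and mt-Co3 (chrM:8607-9390), and a subunit of complex V, the ATP synthase, by mt-Atp6 (chrM:7927-8607). These genes have no introns. All but mt-Nd6 lie on the plus strand, and mt-Nd6 lies on the minus strand, where its last bases overlap those of mt-Nd5. The library kit does not mark strand, so that mt-Nd6 RNA and plus-strand RNA of the same stretch cannot be told apart here.

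A stretch of the mitochondrial genome from mt-Co1 to mt-Nd4 is copied in the nuclear genome on chromosome 1, which bears on how reads were divided between entries. The copy is annotated on the minus strand as 7 unprocessed pseudogenes within chr1:24611535-24616197, and 5 of the 7 had no mismatch to the mitochondrial gene over the aligned length. The pairs below begin with the start of mt-Atp6, which is identical in its copy Gm10925. Next is the only differing base of mt-Co1 and its copy Gm29216 within their aligned length. Last is a stretch of mt-Co1 beside Gm13340, a less alike copy on chromosome 2. Capitals mark bases that differ within a pair. Counted from 1 at the 5′ end of mt-Co1, the difference to Gm29216 is A1066T. The sequences are GENCODE M21 transcripts (GRCm38), at chrM:7927-7986 (plus), chr1:24614592-24614651 (minus), chrM:6390-6449 (plus), chr1:24616129-24616188 (minus), chrM:6364-6423 (plus) and chr2:22588552-22588611 (minus), in this order.
mt-Atp6: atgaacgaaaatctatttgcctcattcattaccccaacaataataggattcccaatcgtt
Gm10925: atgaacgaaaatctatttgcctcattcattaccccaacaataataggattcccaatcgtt
mt-Co1 beside Gm29216: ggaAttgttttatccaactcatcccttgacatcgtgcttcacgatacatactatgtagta
Gm29216: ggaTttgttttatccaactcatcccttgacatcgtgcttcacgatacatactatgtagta
mt-Co1 beside Gm13340: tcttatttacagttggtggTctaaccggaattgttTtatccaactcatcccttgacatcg
Gm13340: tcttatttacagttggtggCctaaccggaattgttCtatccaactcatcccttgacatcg

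The chromosome 1 entries were at levels of the mitochondrial genes themselves. Gm10925, the copy of mt-Atp6, had a median of 14611 FPKM over the 30 libraries (6353 to 18489.5 FPKM), whereas mt-Atp6 was listed only for AngII+BAI and had 0.442, 0.134, 0.136, 2.59 and 0.127 FPKM there. Gm28437, identical to mt-Co3 over 783 bases, had 4729 to 14328 FPKM and held a median of 98.6% of the reads at the pair (64.0% to 99.999%). Gm28661, identical to mt-Co2 over 681 bases, held 38.7% to 45.3% of its pair's reads. Gm29216 covers the last 483 bases of mt-Co1 and held 7.69% to 18.9%. By contrast, the chromosome 2 copy Gm13340, which is 97.6% identical to mt-Co1 over its whole length, had 6.75 to 62.3 FPKM. Reads of an identical pair cannot be assigned by sequence. The levels printed for mt-Co1, mt-Co2, mt-Co3, mt-Nd4 and mt-Atp6 are therefore uncertain by the reads listed at the copies, and their log2 fold changes with the copies' reads added are given for AngII against Control and for each compound against AngII.

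**Figure D1:**
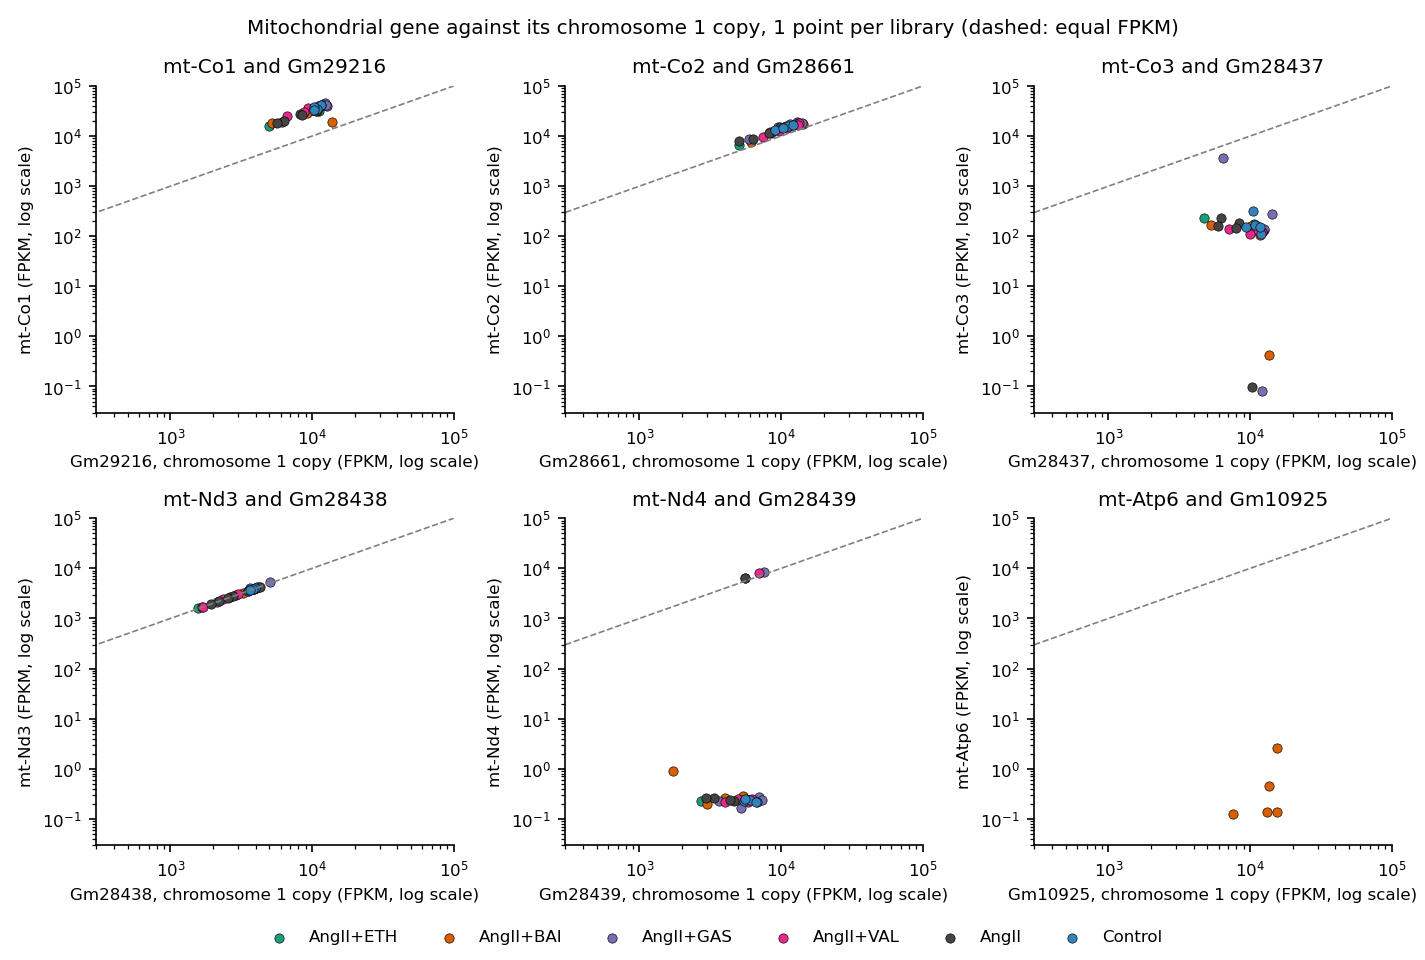
Each panel plots the FPKM of a chromosome 1 copy (horizontal, log scale) against the FPKM of its mitochondrial gene (vertical, log scale). Points are the libraries that list the gene, with colours for the 6 groups and a dashed line where both are equal. The copy Gm28437 is higher than mt-Co3 in 30 of 30 libraries, so that its points lie below the line. Gm29216 is lower than mt-Co1 in every library, with points above the line.

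Of the 37 genes that the annotation places on the mitochondrial genome, 14 were listed for any group and 12 for all groups. None of the 22 tRNA genes was listed (0 of 22), and mt-Nd4l, a complex I subunit that has the identical copy Gm10222, was not listed. Besides the 10 genes of the list, mt-Nd3 of complex I and the rRNA genes mt-Rnr1 and mt-Rnr2 were listed for all groups. The gene mt-Atp8 of complex V was listed only for AngII+BAI, at 4835 FPKM in AngII+BAI 4 and at 0.140 to 0.194 FPKM in the other 4 libraries. The gene mt-Nd2 also stood apart in AngII+BAI 4, at 8924 FPKM against 13.5 to 63.2 FPKM in the other 29 libraries.

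Depth was 69.8 to 80.8 M (megareads) per library, read from the step size of low values. The smooth muscle markers Acta2 (869 to 7433 FPKM) and Myh11 (69.0 to 861 FPKM) were present in all 30 libraries, with the lowest summed level of 6 such markers in AngII+BAI 3 (1327 FPKM). Brown adipocyte markers were present in every library too, with Ucp1 at 275 to 3834 FPKM and Cidea at 110.0 to 706 FPKM, beside the smooth muscle markers. In such bulk RNA, fewer cells of a type and less RNA per cell cannot be told apart. The labels give each library a number of its own but do not say how animals and libraries correspond, so p-values measure the spread between these libraries.

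Mitochondrial mRNAs were among the most abundant entries of the aorta. By median FPKM over all libraries, among 39267 transcripts listed for all groups, mt-Co1 ranked 1st (32406 FPKM), mt-Cytb 2nd (22000.1 FPKM) and mt-Co2 3rd (15013 FPKM). The complex I genes mt-Nd1 (9457 FPKM), mt-Nd5 (6862 FPKM) and mt-Nd6 (992 FPKM) ranked 8th, 9th and 35th. Lower entries were mt-Co3 (149.6 FPKM, rank 294), mt-Nd2 (31.1 FPKM, rank 1658) and mt-Nd4 (0.241 FPKM, rank 34534), although all 3 lie on the strand that carries mt-Co1. With the reads of Gm28437 added, mt-Co3 had a median of 10932 FPKM, and with those of Gm28439, its copy of the first 876 bases, mt-Nd4 had 3474 FPKM. The latter is computed over the full 1378 bases of mt-Nd4. In the 26 libraries with mt-Nd4 near 0 it holds almost no reads from beyond the copy, and so understates the whole gene.

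The 9 genes listed for all groups together took 11.4% to 22.1% of the FPKM of annotated transcripts in AngII+ETH (median 20.1%), 10.6% to 20.8% in AngII+BAI (12.5%), 14.6% to 27.0% in AngII+GAS (22.9%), 14.9% to 25.1% in AngII+VAL (19.7%), 10.8% to 21.5% in AngII (16.9%) and 19.9% to 22.8% in Control (20.8%). Control was the narrowest group, and each of the angiotensin II groups had at least 1 library below it. The mean share was 15.7% ± 4.34 in AngII and 21.2% ± 1.28 in Control (SD, n = 5 each), a difference of −5.53 percentage points. The lowest AngII share was in AngII 3, where mt-Cytb was at 3.65 FPKM, and the highest in AngII 4, where mt-Nd4 was at 6437 FPKM. Without AngII 3 the difference was −4.305 percentage points. For mt-Nd1, mt-Nd5, mt-Nd6, mt-Co1 and mt-Co2 alone, the share was 9.17% to 14.9% in AngII and 14.8% to 17.1% in Control. With the FPKM of all 7 chromosome 1 copies added, the shares averaged 25.8% ± 6.30 in AngII and 34.4% ± 2.11 in Control. These 7 include the copies of mt-Atp6, mt-Nd3 and mt-Nd4l, which are not among the 9 genes. Since the share is a score over chosen genes, it was not tested. As a summed level, the same 9 genes had 42209 to 97676 FPKM in AngII (median 70344 FPKM) and 89904 to 106173 FPKM in Control (96323 FPKM).

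**Figure D2:**
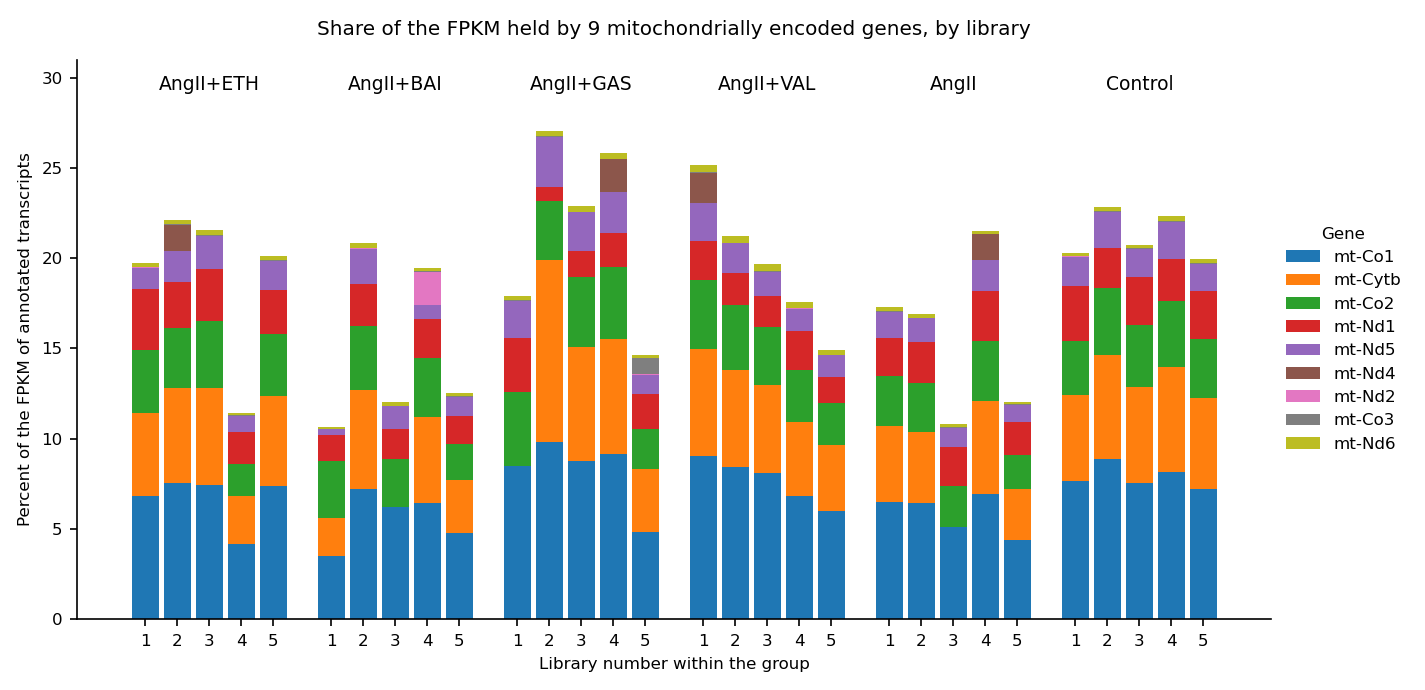
Stacked bars give, for each of the 30 libraries, the percent of annotated FPKM taken by each of the 9 genes listed for all groups. The rRNAs and the copies are not part of the bars. The Control libraries are alike in height, while every angiotensin II group holds tall and short bars side by side.

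The member mt-Co1, the largest catalytic subunit of cytochrome c oxidase, was the most abundant member. In libraries 1 to 5 it stood at 32276, 33463, 33350.1, 15989.8 and 32933 FPKM in AngII+ETH. It stood at 18941, 31951, 28651, 31108 and 18257 FPKM in AngII+BAI. In AngII+GAS it stood at 40043, 45220.1, 41496, 42542 and 19154 FPKM. Each of these 3 groups held 1 or 2 libraries far below the others, and AngII+GAS had the highest library of all. The AngII+VAL libraries had 42431, 38989, 36059.9, 30290.4 and 24633 FPKM. The AngII libraries had 27041, 26691, 19973, 31586 and 18011 FPKM, against 34223, 41278, 34896, 37549.6 and 32536 FPKM in Control. All AngII libraries lay below all Control libraries, and AngII overlapped each compound group.

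**Figure D3:**
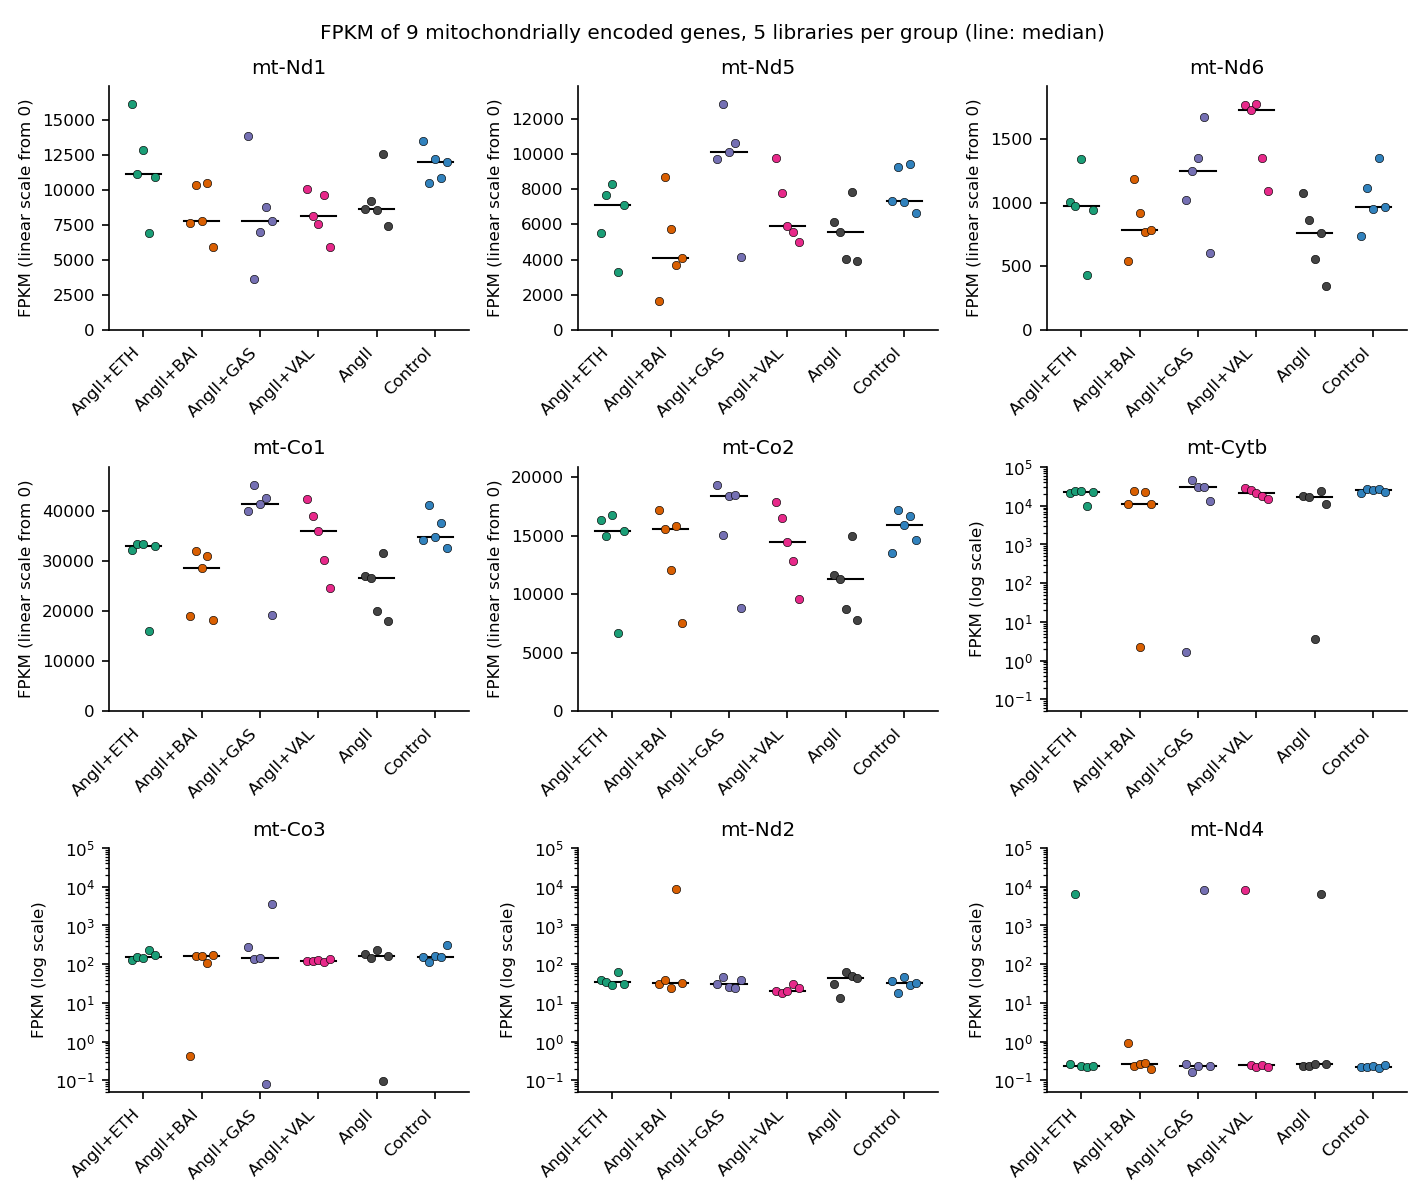
Panels show the FPKM of each of the 9 genes listed for all groups in every library, by group, with a line at the group median; mt-Cytb, mt-Co3, mt-Nd2 and mt-Nd4 are on log axes. For mt-Co1 the 5 AngII points lie under the 5 Control points, and for mt-Cytb, mt-Co3, mt-Nd2 and mt-Nd4 single libraries lie orders of magnitude from their group.

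The first comparison, of AngII with Control, concerns the hormone alone. Of the 8 genes that reached 1 FPKM in at least 5 libraries and could be tested (all but mt-Nd4 and mt-Atp6), 7 were lower in AngII, with a median log2 fold change of −0.57, where all 13223 genes tested had a median of 0.11. Under quantile normalization, which moved the median of all genes by −0.13 here, 4 were lower and 3 higher (median of the 8 genes −0.05), with mt-Co2 and mt-Nd1 turned to 0.11 and 0.18. That setting gives the highest gene of every library the same value, which left mt-Co1 at 0 here. In this and the later comparisons it cannot show whether mt-Co1 changed. By limma 0 of the 8 passed an adjusted p of 0.05, and 0.0% of all genes did, with 1480 genes at an unadjusted p under 0.05. Among the members 1, mt-Co1, had an unadjusted p under 0.05 with a lower level, as did 1.69% of all genes. It averaged 24660.2 ± 5567 FPKM in AngII and 36096 ± 3413 FPKM in Control (SD, n = 5 each), a log2 fold change of −0.58 (SE 0.26, limma adjusted p = 0.388). The ranges of mt-Co1 did not overlap, a pattern in this direction that 0.537% of all genes showed, and they did not overlap with the copy's reads added (log2 fold change −0.57). With the copies' reads added all 10 members could be tested, and 3 were lower at an unadjusted p under 0.05, namely mt-Co1, mt-Co3 and mt-Atp6, where 1.69% of all genes were.

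The other complex IV genes had similar or less certain values in AngII against Control. The second catalytic subunit, mt-Co2, had 7833 to 14995 FPKM (median 11308 FPKM) in AngII and 13530.0 to 17188 FPKM (15934 FPKM) in Control, with 1 AngII library, AngII 4, inside the Control range (log2 fold change −0.55, SE 0.27, limma adjusted p = 0.455). With the reads of Gm28661 added it had 18492 ± 4677 FPKM in AngII and 26448 ± 2649 FPKM in Control, and the log2 fold change was again −0.55 (SE 0.28). As listed, mt-Co3 had −1.39 (SE 1.52), which rests on AngII 4 at 0.0978 FPKM. With the reads of Gm28437 added, its level was 6139 to 10228 FPKM in AngII and 9568 to 12012 FPKM in Control, and its log2 fold change −0.51 (SE 0.24). For mt-Atp6 of complex V, the sum with Gm10925 averaged 10487 ± 2748 FPKM in AngII and 15124 ± 1636 FPKM in Control (log2 fold change −0.56, SE 0.27, limma adjusted p = 0.437).

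Among the complex I genes, mt-Nd1, which forms part of the membrane arm near the quinone site, had 7452 to 12626 FPKM (median 8663 FPKM) in AngII and 10521 to 13525 FPKM (12053 FPKM) in Control. Its log2 fold change was −0.36 (SE 0.26). The proton-pumping subunit gene mt-Nd5 had 3920.0 to 7825 FPKM in AngII and 6619 to 9395 FPKM in Control (−0.57, SE 0.35), and mt-Nd6 had 347 to 1074 FPKM in AngII and 741 to 1354 FPKM in Control (−0.58, SE 0.31). The groups overlapped for all 3 genes. The gene mt-Nd2 had a log2 fold change of 0.17 (SE 0.94), with 13.5 to 61.9 FPKM in AngII and 17.8 to 46.6 FPKM in Control. With the quinone-binding mt-Cytb at 3.65 FPKM in AngII 3, its fold change was −2.91 (SE 2.39). Without that library mt-Cytb had 11394 to 23393 FPKM in AngII, against 21161 to 26886 FPKM in Control. With its copy's reads added, mt-Nd4 had a log2 fold change of −0.28 (SE 0.50). The sum was 1886 to 9994 FPKM (median 2753 FPKM) in AngII and 3499 to 4285 FPKM in Control. Its highest library was also far above the median in AngII+ETH (10008 against 3446 FPKM), AngII+GAS (13274 against 4449 FPKM) and AngII+VAL (12428 against 3742 FPKM). The fold changes of mt-Nd4 with the copy added therefore still depend on single libraries.

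Markers of other cell types moved with this comparison. The summed level of 5 fibroblast markers, all of them listed, was 1342 to 3414 FPKM in AngII and 859 to 1247 FPKM in Control, without overlap, and it was highest in AngII 3 (3414 FPKM) and AngII 5 (2427 FPKM), the AngII libraries with the lowest mt-Co1. Neuron markers summed to 440.3 FPKM in AngII 1, 149 FPKM in AngII 4 and 645 FPKM in AngII 5, and to 41.4 FPKM or less in the other AngII and the Control libraries. With brown adipocyte and skeletal muscle scores as terms of the fit, the log2 fold change of mt-Co1 was −0.19 in AngII against Control (limma adjusted p = 0.974), that of mt-Nd5 −0.29, of mt-Nd6 −0.21, of mt-Co2 −0.06 and of mt-Nd1 −0.01. All 5 were nearer to 0 than without these terms. Those of mt-Co3 (−2.29) and mt-Cytb (−4.33) were further from 0, with near-0 levels of these genes in AngII 4 and AngII 3. That of mt-Nd2 was −0.0032. The brown adipocyte score holds Cox8b and Cox7a1, nuclear subunit genes of complex IV, and Ppargc1a, a regulator of mitochondrial biogenesis. This fit therefore cannot separate brown fat from mitochondrial content. The part of fibroblast and neuron RNA in the result was not tested.

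Ethoxysanguinarine, a plant alkaloid, was compared with AngII. All 8 tested genes were higher in AngII+ETH, with a median log2 fold change of 0.31, where the median of all genes was −0.09, but quantile normalization left 4 higher and 2 lower. By limma 0 of the 8 passed, as did 0.0% of all genes, and 0 had an unadjusted p under 0.05 (451 of all genes). The mt-Co1 level averaged 29602 ± 7624 FPKM in AngII+ETH and 24660.2 ± 5567 FPKM in AngII (log2 fold change 0.24, SE 0.26, limma adjusted p = 0.994), and mt-Nd1 had 6955 to 16164 FPKM in AngII+ETH and 7452 to 12626 FPKM in AngII (0.29, SE 0.26). For mt-Nd6 the range was 436 to 1343 FPKM in AngII+ETH and 347 to 1074 FPKM in AngII (0.39, SE 0.31). In AngII+ETH 4, mt-Co1, mt-Co2, mt-Cytb and mt-Nd6 were each the lowest of the group. With the copies' reads added, the log2 fold changes were 0.24 for mt-Co1, 0.35 for mt-Co2, 0.28 for mt-Co3, 0.30 for mt-Atp6 and 0.25 for mt-Nd4.

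With baicalin, a flavonoid glucuronide, 4 of the 8 genes were higher and 4 lower than in AngII, with a median log2 fold change of −0.04 beside −0.01 for all genes (3 higher and 5 lower with FPKM rescaled outside the mitochondrial genome, which moved the median of all genes by −0.11). By limma 0 members passed and 0.333% of all genes did, while 0 members and 1936 of all genes had an unadjusted p under 0.05. Levels of mt-Co1 averaged 25782 ± 6672 FPKM in AngII+BAI and 24660.2 ± 5567 FPKM in AngII (log2 fold change 0.05, SE 0.26), a direction that turned when FPKM were rescaled outside the mitochondrial genome (−0.09). The gene mt-Nd5 had 1655 to 8682 FPKM in AngII+BAI and 3920.0 to 7825 FPKM in AngII (−0.35, SE 0.35). For mt-Co2 the range was 7552 to 17169 FPKM in AngII+BAI and 7833 to 14995 FPKM in AngII (0.30, SE 0.27). In AngII+BAI 1 the members were out of step, with mt-Co2 at 17169 FPKM, the highest of its group, beside mt-Co1 at 18941 FPKM and mt-Nd5 at 1655 FPKM. With the copies' reads added, 6 of 10 members were higher, with log2 fold changes of 0.08 for mt-Co1, 0.35 for mt-Co2, 0.38 for mt-Co3, 0.31 for mt-Atp6 and −0.45 for mt-Nd4.

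Gastrodin, a phenolic glucoside, gave the highest group medians of mt-Co1, mt-Co2, mt-Nd5 and mt-Cytb. Of the 8 tested genes 6 were higher in AngII+GAS than in AngII, with a median log2 fold change of 0.56, where the median of all genes was −0.17. Quantile normalization moved the median of all genes by 0.19 and left 5 of the 8 higher and 2 lower. By limma 0 of the 8 passed and 0.0151% of all genes did. At an unadjusted p under 0.05 stood 3 members with higher levels, and 1.23% of all genes were at such a p in this direction (1807 genes in both directions). These were mt-Co1 (37691 ± 10534 FPKM in AngII+GAS, 24660.2 ± 5567 FPKM in AngII; log2 fold change 0.58, SE 0.26, limma adjusted p = 0.314), mt-Nd5 (9485 ± 3217 FPKM in AngII+GAS, 5492 ± 1617 FPKM in AngII; 0.74, SE 0.35) and mt-Nd6 (1181 ± 397 FPKM in AngII+GAS, 722 ± 279 FPKM in AngII; 0.73, SE 0.31). Their adjusted p was 0.290 to 0.348, and quantile normalization turned the direction of mt-Co1 (−0.12). In AngII+GAS 2 mt-Cytb (46293 FPKM) stood above mt-Co1 (45220.1 FPKM). Since that setting fixes the highest value of each library, the turn cannot show the direction of mt-Co1. AngII+GAS 5 was low in mt-Co1, mt-Nd5 and mt-Nd6 and overlapped AngII, while the other 4 libraries lay above all AngII libraries in mt-Co1 and mt-Nd5. For mt-Nd1 the direction differed, with 3634 to 13910.2 FPKM in AngII+GAS and 7452 to 12626 FPKM in AngII (log2 fold change −0.28, SE 0.26).

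With the copies' reads added, the count in AngII+GAS at an unadjusted p under 0.05 was 5 of 10 members, again beside 1.23% of all genes, and 0 passed. The added members were mt-Co3, with 12475 ± 1592 FPKM in AngII+GAS and 7885 ± 1664 FPKM in AngII (log2 fold change 0.68, SE 0.24, unadjusted p = 0.00919, limma adjusted p = 0.243), and mt-Atp6, with 15984 ± 4187 FPKM in AngII+GAS and 10487 ± 2748 FPKM in AngII (0.59, SE 0.27). The value of mt-Co3 had the smallest p of the 10, and its ranges overlapped. On the same scale mt-Co1 had 0.57, mt-Co2 0.53 and mt-Nd4 0.53. With brown adipocyte and skeletal muscle scores as terms, and the entries as listed, mt-Co1 had 0.25, mt-Co2 0.10, mt-Nd5 0.48 and mt-Nd6 0.37. As above, such a fit cannot separate brown fat from mitochondrial content. The log2 fold changes of mt-Nd1 (−0.59), mt-Co3 (1.85) and mt-Cytb (0.84) were further from 0 than without the terms, and mt-Nd2 had −0.08. Both mt-Co3 and mt-Cytb had a near-0 library in AngII+GAS and in AngII.

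Valsartan was compared with AngII as the receptor blocker of the study. Of the 8 tested genes 6 were higher in AngII+VAL, with a median log2 fold change of 0.44, where the median of all genes was −0.12, and quantile normalization, which moved the median of all genes by 0.12, left 3 higher and 4 lower. By limma 0 of the 8 passed, as did 0.0% of all genes, with 1429 genes at an unadjusted p under 0.05. The member with the smallest p was mt-Nd6, the complex I gene of the minus strand. It had 1764, 1728, 1774, 1353 and 1094 FPKM in AngII+VAL. In AngII it had 1074, 863, 561, 764 and 347 FPKM, and in Control 741, 1115, 953, 1354 and 968 FPKM. All AngII+VAL libraries were above all AngII libraries, and they overlapped Control. The log2 fold change was 1.17 against AngII (SE 0.31, unadjusted p = 0.00071, limma adjusted p = 0.143) and 0.59 against Control (SE 0.31). A higher level with ranges that do not overlap was found for 1 of the 8 members and 0.537% of all genes, and a higher level at an unadjusted p under 0.05 for 1 member and 1.78% of all genes. The adjusted p of mt-Nd6 was 0.0785 to 0.547 over the alternatives. Of the others, mt-Co1 had 34481 ± 7081 FPKM in AngII+VAL and 24660.2 ± 5567 FPKM in AngII (0.49, SE 0.26, limma adjusted p = 0.496), and mt-Nd1 8286 ± 1657 FPKM in AngII+VAL and 9316 ± 1962 FPKM in AngII (−0.17, SE 0.26). With the copies' reads added, the log2 fold changes were 0.47 for mt-Co1, 0.45 for mt-Co2, 0.43 for mt-Co3, 0.51 for mt-Atp6 and 0.43 for mt-Nd4.

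**Figure D4:**
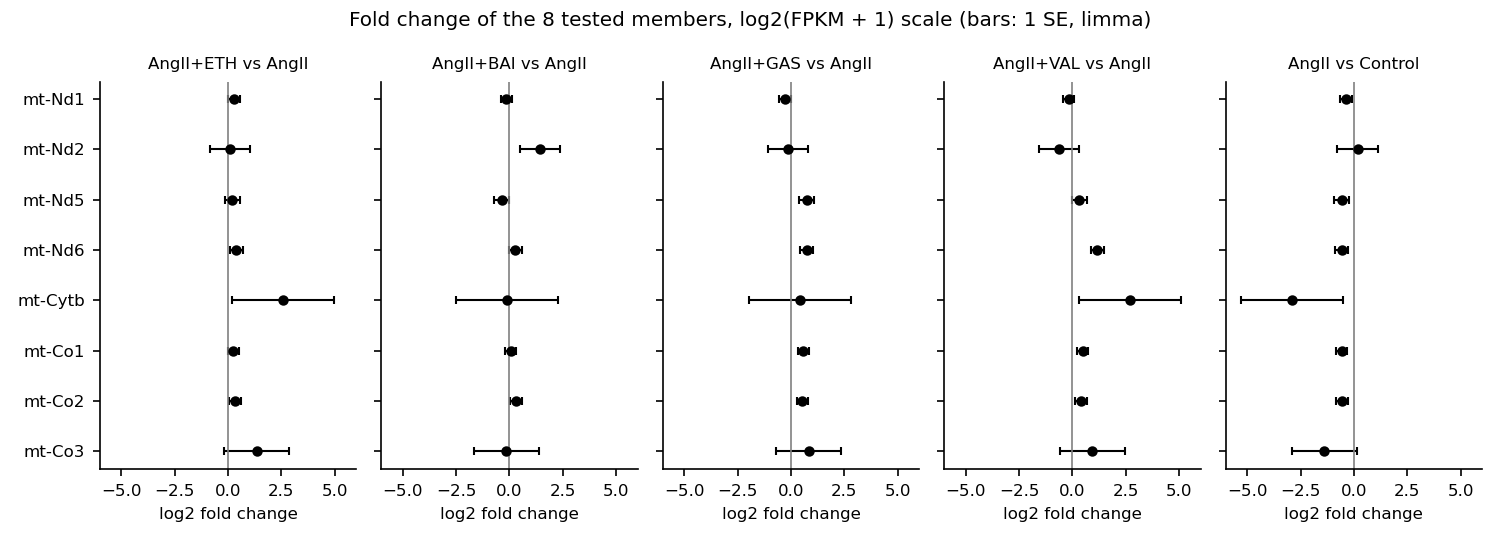
Points are log2 fold changes on the log2(FPKM + 1) scale of the 8 tested genes in the 5 comparisons named in the panels, with bars of 1 SE from limma. In AngII against Control 7 of 8 points lie below 0 (4 under quantile normalization, which fixes the value of the highest gene). The point of mt-Nd6 in AngII+VAL against AngII is at 1.17, while mt-Co3 and mt-Cytb have the widest bars.

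Levels relative to mt-Co1 were compared between groups by their ranges. Per 100 FPKM of mt-Co1, mt-Nd6 had 2.73 to 4.03 in AngII+ETH, 2.48 to 4.29 in AngII+BAI, 2.56 to 3.93 in AngII+GAS, 4.16 to 4.92 in AngII+VAL, 1.93 to 3.97 in AngII and 2.16 to 3.61 in Control. AngII+VAL thus lay above 4 of the other 5 groups without overlap and overlapped AngII+BAI. The same ratio for mt-Nd1 was 20.98 to 31.9 in AngII+VAL, below 32.0 to 43.0 in AngII, and 25.5 to 39.5 in Control. In AngII+GAS it was 8.04, 17.0 and 20.8 in libraries 2, 3 and 4 and 34.7 and 40.7 in libraries 1 and 5. The rRNAs, mt-Rnr1 and mt-Rnr2 together, had 6.56 to 9.003 per 100 FPKM of mt-Co1 in AngII+VAL, 7.65 to 18.6 in AngII and 5.15 to 13.0 in Control, after a depletion step that removes rRNA. Per 100 FPKM of mt-Co1, mt-Nd5 had 16.4 to 23.0 in AngII+VAL, 20.2 to 24.8 in AngII and 20.3 to 25.0 in Control, and mt-Co2 had 38.8 to 42.5 in AngII+VAL, 42.4 to 47.5 in AngII and 39.5 to 45.7 in Control, with overlap. These ratios were chosen after the values were seen and carry no test. The comparisons with AngII share its 5 libraries.

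**Figure D5:**
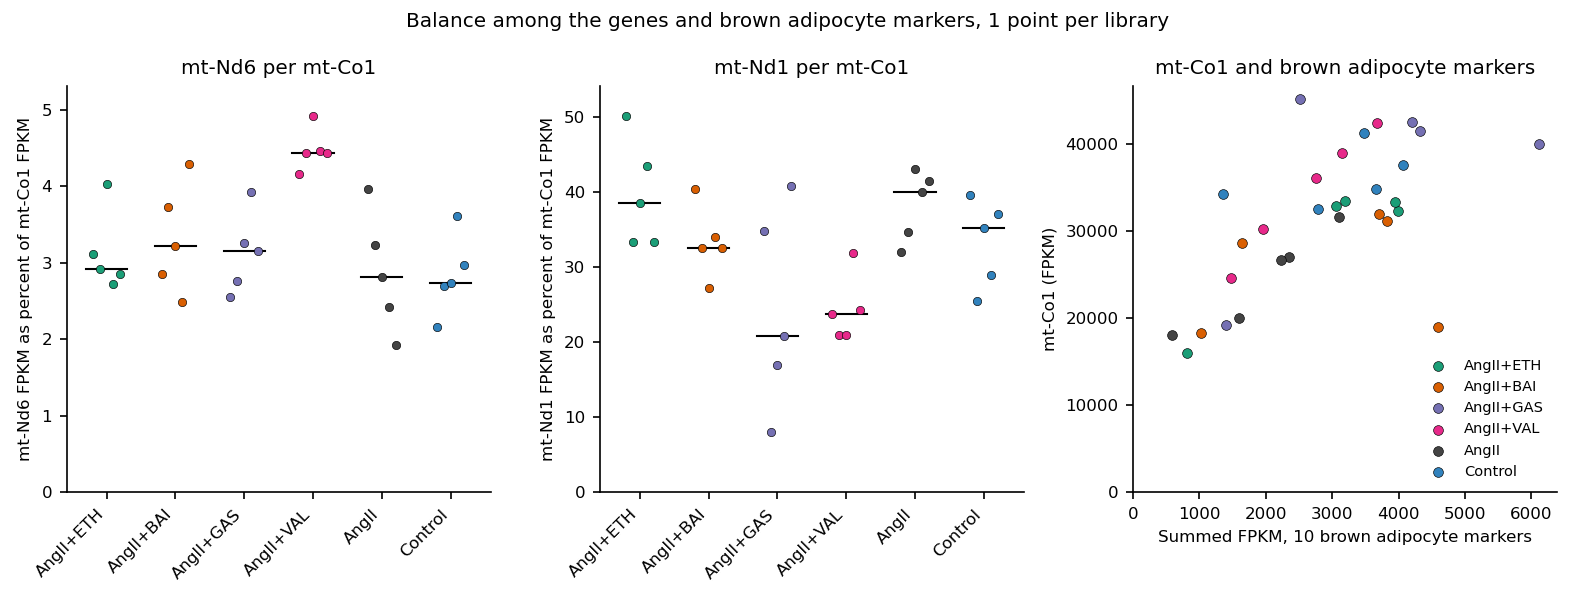
The first panels plot mt-Nd6 and mt-Nd1 per 100 FPKM of mt-Co1 in every library by group, and the last plots mt-Co1 FPKM against the summed FPKM of 10 brown adipocyte markers. AngII+VAL lies at 4.16 to 4.92 for mt-Nd6, and low mt-Co1 goes with a low marker sum in most groups, with AngII+BAI 1 (18941 FPKM of mt-Co1 at a marker sum of 4600.2 FPKM) apart.

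Against Control, each compound group was read for calls and order only. In AngII+BAI 0 members passed and 1.44% of all genes did, with 2511 genes at an unadjusted p under 0.05. Of the 8 members 1 was lower at an unadjusted p under 0.05, beside 5.32% of all genes, namely mt-Nd5 with 4767 ± 2628 FPKM in AngII+BAI and 7963 ± 1267 FPKM in Control (log2 fold change −0.92, SE 0.35, limma adjusted p = 0.148). Without AngII+BAI 2 it passed (−1.19, limma adjusted p = 0.0357), and 7.22% of all genes did. The range of mt-Co1 lay below that of Control without overlap, as did those of 0.991% of all genes. In AngII+VAL 0 members and 0.0% of all genes passed (508 genes at an unadjusted p under 0.05), and mt-Nd1 lay at 5962 to 10063 FPKM in AngII+VAL, below 10521 to 13525 FPKM in Control, a pattern of 1.15% of all genes. In AngII+GAS 0 members and 0.00756% of all genes passed (489 genes at an unadjusted p under 0.05), and mt-Nd1 had a log2 fold change of −0.64 (SE 0.26, limma adjusted p = 1.00), with 2.62% of all genes lower at an unadjusted p under 0.05. In AngII+ETH 0 members and 0.0% of all genes passed, with 685 genes at an unadjusted p under 0.05.

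Ordered by median, mt-Co1 ran from AngII (26691 FPKM) over AngII+BAI (28651 FPKM), AngII+ETH (32933 FPKM), Control (34896 FPKM) and AngII+VAL (36059.9 FPKM) to AngII+GAS (41496 FPKM). For mt-Nd6 the order was AngII (764 FPKM), AngII+BAI (783 FPKM), Control (968 FPKM), AngII+ETH (977 FPKM), AngII+GAS (1252 FPKM) and AngII+VAL (1728 FPKM). For mt-Nd1 AngII+BAI (7795 FPKM), AngII+GAS (7800.1 FPKM), AngII+VAL (8178 FPKM) and AngII (8663 FPKM) lay close together below AngII+ETH (11134 FPKM) and Control (12053 FPKM). Neighbouring groups in these orders overlapped.

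In single libraries, 4 genes were near 0 or far above their usual level. The level of mt-Cytb was 2.32 FPKM in AngII+BAI 3, 1.69 FPKM in AngII+GAS 1 and 3.65 FPKM in AngII 3, from 141 to 317 reads, and 10136 to 46293 FPKM in the other 27. The level of mt-Co3 was 0.420 FPKM in AngII+BAI 1, 0.0817 FPKM in AngII+GAS 4 and 0.0978 FPKM in AngII 4, and 3650.2 FPKM in AngII+GAS 5. In the 3 libraries where mt-Cytb was near 0, mt-Co1 was at 28651, 40043 and 19973 FPKM in the same order. In mt-Nd4 the pattern was the reverse, with 0.163 to 0.905 FPKM in 26 libraries and 6459.9 FPKM in AngII+ETH 2, 8423 FPKM in AngII+GAS 4, 8007 FPKM in AngII+VAL 1 and 6437 FPKM in AngII 4. An entry assembled from the reads, selected after its values were seen, was at 666, 997, 761 and 731 FPKM in those same 4 libraries and at 25.3 FPKM or less in all others. How the quantifier moved reads between such entries was not tested.

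Nuclear genes of the respiratory chain had the direction of the mitochondrial genes in AngII against Control. Of 78 listed nuclear subunit genes of complexes I to V, 77 were tested, 0 passed, and 73 were lower in AngII, with a median log2 fold change of −0.38. Against AngII, 70 of the 77 were higher in AngII+ETH (median 0.20), 71 in AngII+BAI (0.30), 70 in AngII+GAS (0.31) and 65 in AngII+VAL (0.22), with 0 passing in each. Under quantile normalization the count lower in AngII than in Control was again 73, and the counts higher than in AngII were 71, 66, 73 and 70 in the same order of groups. Their medians were then 0.23, 0.14, 0.37 and 0.27, and that of AngII+BAI was 0.16 with FPKM rescaled outside the mitochondrial genome. Complex I had the gene with the smallest p, Ndufa12, with 5.45 ± 2.61 FPKM in AngII and 23.7 ± 14.3 FPKM in Control (log2 fold change −1.75, SE 0.53, limma adjusted p = 0.225). Cox5b, a nuclear subunit of complex IV, averaged 179 ± 28.1 FPKM in AngII and 260.5 ± 23.5 FPKM in Control without overlap (−0.55, SE 0.29). Sdhc of complex II, which has no mitochondrially encoded subunit, averaged 51.1 ± 8.86 FPKM in AngII and 73.3 ± 11.6 FPKM in Control (−0.52, SE 0.21). Uqcrc1 of complex III had −0.69 (SE 0.33) and Atp5b of complex V −0.51 (SE 0.28).

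Genes that act on mitochondrial DNA and RNA were less uniform in AngII against Control. Of 19 tested genes of replication and transcription, 10 were higher and 9 lower in AngII (median log2 fold change 0.05), and of 21 genes of RNA processing and stability 4 were higher and 17 lower (median −0.16), with 0 passing in either list. Tfb2m, the transcription factor that opens the promoter for the mitochondrial RNA polymerase, averaged 7.21 ± 5.74 FPKM in AngII and 15.9 ± 3.22 FPKM in Control (−1.33, SE 0.58, limma adjusted p = 0.380). Fastkd2, an RNA-binding protein of mitochondrial ribosome assembly, had −0.38 (SE 0.17). Among 12 genes of biogenesis and mitochondrial mass (8 lower, median −0.33), Cs, citrate synthase, averaged 274 ± 50.4 FPKM in AngII and 397 ± 84.4 FPKM in Control (−0.53, SE 0.27), and Tomm20, an import receptor of the outer membrane, 20.4 ± 2.42 FPKM in AngII and 17.995 ± 0.575 FPKM in Control (0.16, SE 0.10).

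Brown adipocyte markers varied with mt-Co1 between libraries. All 10 markers were listed, none was at 0 throughout, and their summed level was 815 to 3996 FPKM in AngII+ETH, 1029 to 4600.2 FPKM in AngII+BAI, 1395 to 6111 FPKM in AngII+GAS, 1472 to 3674 FPKM in AngII+VAL, 581 to 3109 FPKM in AngII and 1356 to 4074 FPKM in Control. In 5 of the 6 groups the library with the lowest mt-Co1 was also the one with the lowest marker sum. The 10 markers include Cox8b, Cox7a1 and Ppargc1a, so neither the sum nor the score is independent of mitochondrial content. In AngII+BAI 1 the marker sum was the highest of its group, at 4600.2 FPKM, where mt-Co1 was low at 18941 FPKM. Beside the high mt-Nd6 of AngII+VAL, other markers differed too. The sum of 8 listed skeletal muscle markers was 594 to 3299 FPKM in AngII+VAL and 10.7 to 74.2 FPKM in AngII (22.8 to 3697 FPKM in Control). The sum of 3 erythrocyte markers was 5416 to 21569 FPKM in AngII+VAL and 1246 to 7836 FPKM in AngII, and that of 2 listed of 4 kidney markers 69.9 to 100.2 FPKM in AngII+VAL and 0 to 31.1 FPKM in AngII. With brown adipocyte and skeletal muscle scores as terms of the fit, the log2 fold change of mt-Nd6 was 0.97 in AngII+VAL against AngII (limma adjusted p = 0.498), and that of mt-Co1 0.15. In this fit mt-Nd5 had 0.14, mt-Co2 0.03 and mt-Nd2 −0.18. The values of mt-Nd1 (−0.47), mt-Co3 (1.05) and mt-Cytb (6.13) were further from 0 than without the terms. Those of mt-Co3 and mt-Cytb depend on near-0 levels in AngII 4 (0.0978 FPKM) and AngII 3 (3.65 FPKM). In the fit without the terms, mt-Cytb had 2.69, or 0.33 with AngII 3 left out. There mt-Co3 had 0.94, or −0.53 with AngII 4 left out. The part of erythrocyte and kidney RNA in the results was not tested.

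The genes whose levels were most like the mean of the tested members were Frmd6, Fbxo34, Lzts3, Sptbn1 and Nmt2, with Pearson r of 0.67 to 0.73 after subtracting group means (n = 30 libraries, 0.46 to 0.68 without). That mean follows mt-Cytb (r = 0.75), whose 3 near-0 libraries dominate it. Likeness to mt-Co1 alone, added after the values were seen, was highest for Pdk2, a kinase of pyruvate dehydrogenase (r = 0.91, or 0.94 without subtracting group means), Tmem143 (0.89), Clic5 (0.89) and Ptcd3, a mitochondrial ribosome protein (0.89). Among the members, mt-Co2 (0.86), mt-Nd5 (0.84) and mt-Nd6 (0.84) varied with mt-Co1, and mt-Nd1 less so (0.39). As listed, mt-Cytb had 0.08, mt-Nd2 0.05 and mt-Co3 −0.31. The r of mt-Cytb includes its 3 near-0 libraries and was not computed without them. Of its other 27 libraries, AngII+ETH 4 was lowest (10136 FPKM) and AngII+GAS 2 highest (46293 FPKM). The same libraries were lowest and highest in mt-Co1 (15989.8 and 45220.1 FPKM). Most reads of the mt-Co3 pair were listed at Gm28437. All points share library size and tissue composition, so these values are descriptions.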

How the data were processed

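The authors deposited FPKM values per transcript, 1 file per library; the unit was inferred from the values. Per the submitters' processing notes the build was mm10 and limma was used; the sources used here do not give the aligner, assembler or quantifier. Between 97.9% and 99.4% of a library's low values came within 0.1 read of a whole number, which gave 69.8 to 80.8 M reads; 3 reads in 2 kb correspond to 0.0186 to 0.0215 FPKM, a floor for counting error only. Annotated transcripts (GENCODE M21, GRCm38) of the lists of all groups were summed per gene. Genes with at least 1 FPKM in 5 libraries (13223) were fitted as log2(FPKM + 1) with limma 3.58.1 in R 4.3.3 (trend, robust, all 30 libraries, 24 residual and 2.58 prior degrees of freedom), two-sided, with Benjamini-Hochberg adjustment over all genes; fold changes are on that scale and understate the change of low genes. The fit was tested on simulated data. Copies were searched with blastn 2.17.0, at 99% identity or more. matplotlib 3.10.9, pandas 2.3.3 and numpy 2.4.6 under Python 3.11.15 made tables and plots. All members are named. Of each nuclear list, the 2 genes per direction with the smallest p in AngII against Control could be named. Members and lists were chosen with earlier results of these data known.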

Additional observations from a re-analysis of the deposited data

Results flagged for a closer look

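Values were compared within each group of 5 libraries, and a library was singled out when its gap to the nearest other library was over 0.71 of the group's range. This held in 13 of 60 sets, each of them 1 gene or the share in 1 group. A rate of about 1 in 20 applies to independent, normally distributed values. These sets share libraries and hold near-0 entries, so an excess over that rate was not tested.

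For mt-Nd4 the library far above its group was AngII+ETH 2 (6459.9 FPKM), AngII+GAS 4 (8423 FPKM), AngII+VAL 1 (8007 FPKM) and AngII 4 (6437 FPKM), and in AngII+BAI it was library 1 at 0.905 FPKM. For mt-Nd2 it was AngII+BAI 4 (8924 FPKM). For mt-Co3 it was AngII+GAS 5 (3650.2 FPKM) and Control 5 (315 FPKM).

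AngII+ETH 4 lay far below its group in mt-Co1 (15989.8 FPKM), mt-Co2 (6668 FPKM), mt-Cytb (10136 FPKM) and the share of FPKM taken by the members (11.4%). AngII+GAS 5 lay far below its group in mt-Co1 (19154 FPKM). The summed brown adipocyte markers were the lowest of their group in both libraries, at 815 FPKM in AngII+ETH 4 and 1395 FPKM in AngII+GAS 5, and their part in these values was not tested.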

How the results depend on the processing

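Under every alternative run, 0 of the 8 tested members passed in the 5 main comparisons, and against Control the count in AngII+BAI was 0 to 1 with single libraries left out (mt-Nd5 without AngII+BAI replicate 2). Over all genes the calls ranged from 0 to 64 in AngII against Control, 0 to 1 in AngII+ETH, 0 to 185 in AngII+BAI (44 as reported), 0 to 232 in AngII+GAS (2 as reported) and 0 to 19 in AngII+VAL, each against AngII, and from 0 to 9, 6 to 954 (190 as reported), 0 to 8 (1 as reported) and 0 to 24 against Control in the same order. Single fold changes turned in 53 of 840 recomputed values, most of them in mt-Co3, mt-Cytb and mt-Nd2.

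Quantile normalization gives the highest gene of every library the same value, and left mt-Co1 at 0 in 4 of 5 comparisons. It turned mt-Nd1 (0.18) and mt-Co2 (0.11) in AngII against Control, mt-Nd5 (−0.070) and mt-Co2 (−0.11) in AngII+ETH, mt-Co1 (−0.12) and mt-Nd2 (0.0053) in AngII+GAS, and mt-Nd5 (−0.19) and mt-Co2 (−0.16) in AngII+VAL. With brown adipocyte and muscle scores as terms, mt-Nd2 had −0.0032 in AngII against Control, and in AngII+BAI mt-Co1 had −0.20, mt-Co3 0.17 and mt-Cytb 1.70. Array weights gave mt-Nd1 0.022, mt-Co3 0.82 and mt-Cytb 1.23 in AngII+BAI, and mt-Co3 −0.031 in AngII+GAS. For mt-Co1 in AngII+BAI, rescaling outside the mitochondrial genome gave −0.089, and outside its copies too −0.068. For mt-Co3 in AngII+BAI, a pseudocount of 0.1 gave 0.052 and the copies' reads 0.38. Without the 3 libraries with mt-Cytb near 0, mt-Nd2 had −0.028 in AngII against Control and 0.0925 in AngII+GAS, and mt-Co1 −0.064 in AngII+BAI. The settings on copies and on these 3 libraries were chosen after seeing the data. The cause of the turns was not tested under any setting.

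With single libraries left out, mt-Nd2 ranged from −0.028 to 0.50 and mt-Co3 from −1.86 to 0.080 in AngII against Control. In AngII+ETH, mt-Nd2 ranged from −0.22 to 0.31 and mt-Co3 from −0.13 to 1.81. In AngII+BAI, mt-Nd2 ranged from −0.18 to 1.94, mt-Co1 from −0.053 to 0.17, mt-Co3 from −1.62 to 1.19 and mt-Cytb from −2.49 to 2.32. In AngII+GAS, mt-Nd2 ranged from −0.46 to 0.073, mt-Co3 from −0.63 to 2.52 and mt-Cytb from −1.95 to 3.07, and in AngII+VAL mt-Co3 from −0.53 to 1.40. No paired analysis was possible because the labels give every library a number of its own, and the numbers 1 to 5 used here only name the libraries of a group and tie none to a library of another group. At 5 libraries a group and these SEs, smaller differences of single members were not detectable.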
